A study of Mus musculus with 12 samples.

Results

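Rag1, Rag2, Dntt, Igll1, Vpreb1, Vpreb3, Sox4, Lef1 and Cd93 are 9 mouse genes that are used in V(D)J recombination or mark early and immature B cells. All probe sets that the array annotation assigned to one of these genes and to no other were taken, which gave 24 of the 45037 probe sets that were not controls, and thus 9 of the 18193 genes that the annotation named alone for at least 1 probe set. A probe set is a group of short DNA probes on an Affymetrix array that together measure one transcript. RNA was measured on 12 arrays, 3 in each of 4 groups, from B220+ B cells that had been sorted from spleen. B220 is a form of CD45 found on the surface of B cells. The 2 genotypes were Foxp1flox/del, called deleted here, and Foxp1wt/flox, called control here, where a flox allele can be removed by Cre recombinase and a del allele lacks the targeted part already. Both genotypes therefore carried 1 flox allele, all samples came from mice of mixed 129/Sv-C57BL/6 background, and all cells were incubated for 4 h. In each genotype 1 group, called IgM-treated, received the reagent named IgM in the labels during those 4 h, and the other, called unstimulated, did not. The labels used here give no Cre driver, no age, and no statement on whether the flox allele had been recombined. They also do not say whether replicates came from separate animals, so p-values refer to the spread between arrays, which may be technical.

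Antigen receptor genes are assembled in developing lymphocytes by the RAG recombinase, a complex of Rag1 and Rag2 that cuts DNA beside the gene segments. Dntt encodes terminal deoxynucleotidyl transferase, a DNA polymerase that adds bases without a template at the joins. In pre-B cells the finished heavy chain pairs with a surrogate light chain made of Vpreb1 and Igll1, the λ5 protein, and forms the pre-B cell receptor. Sox4 and Lef1 are HMG-box transcription factors of early B cells, and Cd93 is a surface protein by which immature and transitional B cells are recognised. Mature splenic B cells normally hold little RNA of the recombinase and surrogate light chain genes. Foxp1 is a forkhead transcription factor that is required for B cell development.

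The promoter windows of Rag1, Rag2 and Dntt are shown because these 3 genes act together in recombination. Rag1 and Dntt had higher values in deleted cells. Rag2, the neighbour of Rag1 on chromosome 2, was listed at or near the lowest value of the table, so whether it differed could not be measured. Each window runs from 250 bases before to 50 bases after the transcription start and was taken from RefSeq, build GRCm38.p6, in the direction of transcription, with searched motifs in capitals.
Rag1, chr2:101649483-101649782, minus strand: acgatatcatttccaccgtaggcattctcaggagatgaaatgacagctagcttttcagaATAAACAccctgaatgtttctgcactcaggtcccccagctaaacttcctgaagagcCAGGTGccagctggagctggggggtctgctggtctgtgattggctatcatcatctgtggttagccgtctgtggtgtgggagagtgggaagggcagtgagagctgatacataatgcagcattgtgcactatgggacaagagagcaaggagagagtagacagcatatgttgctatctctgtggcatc
Rag2, chr2:101624462-101624761, plus strand: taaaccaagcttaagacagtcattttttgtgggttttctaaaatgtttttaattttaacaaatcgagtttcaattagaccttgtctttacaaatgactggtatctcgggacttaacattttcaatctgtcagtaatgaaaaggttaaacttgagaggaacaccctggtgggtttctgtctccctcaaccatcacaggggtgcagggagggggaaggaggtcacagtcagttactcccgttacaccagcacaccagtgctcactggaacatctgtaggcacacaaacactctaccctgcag
Dntt, chr19:41029025-41029324, plus strand: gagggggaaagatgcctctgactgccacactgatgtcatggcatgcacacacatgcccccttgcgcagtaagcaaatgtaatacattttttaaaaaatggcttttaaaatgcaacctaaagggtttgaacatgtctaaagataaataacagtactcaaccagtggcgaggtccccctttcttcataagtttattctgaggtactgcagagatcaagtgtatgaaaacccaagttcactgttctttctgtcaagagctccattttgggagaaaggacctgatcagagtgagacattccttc
The motifs searched on both strands were the forkhead motifs TGTTTAC and TGTTTAT, the E-box CAGGTG, the motif of early B cell factor, EBF, and the LEF/TCF motifs CTTTGAA and CTTTGAT, and none of their matches overlapped. The Rag1 window held ATAAACA, a forkhead motif read on the other strand, with its first base at -191 from the start, and CAGGTG at -135. Neither the Rag2 nor the Dntt window held any of these letters. Windows were found for 8 of the 9 genes, 11 windows in all, and Cd93 was not matched. An E-box also lay at -8 in Igll1 and at -88 in Vpreb1, and 2 of the Lef1 windows held CACCTG at 31 and TGTTTAT at 15 bases into the transcript. Among all 32851 windows of this length, 7.97% held a forkhead motif, 20.2% the E-box, 0.904% the EBF motif and 8.65% a LEF/TCF motif. A match describes letters and does not show binding.

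Values are log2 units after GCRMA, so a difference of 1 is a 2-fold change, and the lowest value of the whole table was 2.23. A probe set was tested when it was above 4 on at least 3 arrays. Of the 24 probe sets, 14 passed and represented 7 of the genes, 9 were at 4 or below on all 12 arrays, and 4 of those were at 2.23 throughout. Rag2 and Vpreb1 had no tested probe set. Those that passed include some that did so only through the deleted cells, so counts over the 14 describe the tested probe sets and not all members. Where a gene had several tested probe sets, the one with the highest mean over the 12 arrays is called its leading probe set, and levels are compared only within a probe set.

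The arrays carried the RNA of B cells. The 8 measured of 9 pan-B-cell markers, such as Cd79a and Ms4a1, had a mean of 11.19 to 12.61 per array, and 0 of them passed the test between genotypes. In the fit with the replicate number as block, Blk, a kinase of B cells, was lower in deleted cells without IgM (-0.78, adjusted p = 0.12, 0.0372 with the block), and it also passed without deleted IgM-treated replicate 3 (0.0349). Within groups, arrays correlated at 0.951 or more, except those with deleted IgM-treated replicate 3, which correlated at 0.817 and 0.865 with the other arrays of its group. Member results are therefore also given without that array where it changes a call. Foxp1 itself had 8 probe sets, and none passed the test between genotypes: the differences ran from -0.29 to 0.13 without IgM (smallest limma adjusted p = 1) and from -0.30 to 0.32 with it (smallest adjusted p = 0.662). It was not determined whether these probe sets cover the floxed sequence, so they do not check the labels.

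**Figure D1:**
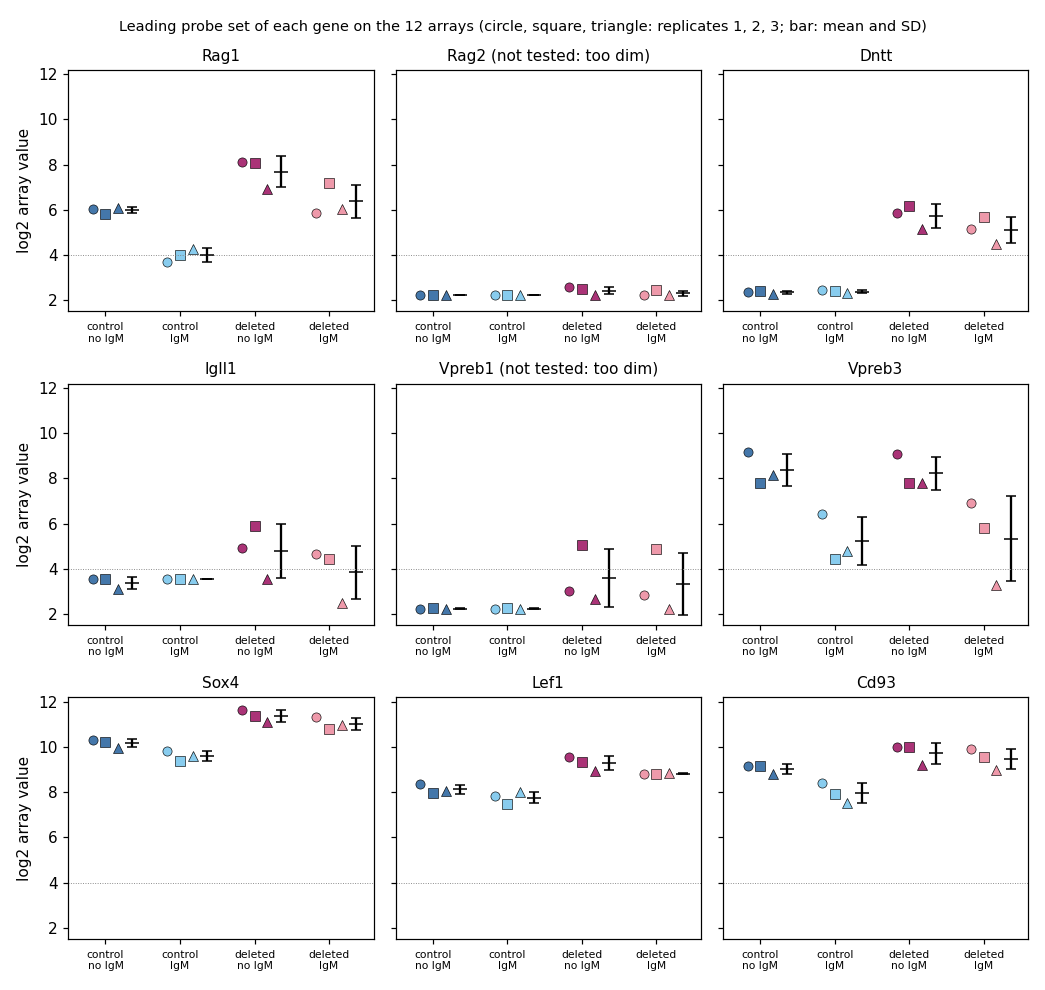
Log2 array value of the leading probe set of each of the 9 genes in the 4 groups, with replicates 1, 2 and 3 as circles, squares and triangles, and the mean with its SD beside them; the dotted line marks the filter at 4. Dntt lies between 2.27 and 2.43 on all 6 control arrays and between 4.50 and 6.17 on all deleted arrays, while Vpreb3 separates by IgM and not by genotype.

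Dntt, Sox4 and Lef1 were higher in unstimulated deleted than in unstimulated control B cells, and Dntt, Rag1, Sox4, Lef1 and Cd93 were higher in deleted cells after IgM. Without IgM, 4 of the 14 tested probe sets, from 3 genes, passed a limma adjusted p of 0.05, and all were higher in deleted cells. Over all 19187 tested probe sets, 1.47% were called higher in this comparison. With IgM, 6 of the 14, from 5 genes, were called higher, against 1.06% of all tested probe sets. Of the 14, 3 were above 4 on no control array, both Dntt probe sets and the leading one of Igll1, and had entered the test only through deleted cells. Of the other 11, 2 were called higher without IgM and 4 with it, where 1.12% and 0.953% of the 18986 probe sets above 4 on at least 1 control array were. No tested member was called lower in either comparison. The median difference of the 14 was 0.90 without IgM and 1.47 with it, where the medians over all leading probe sets of the 9293 genes were 0.0 and 0.08. In the fit with a replicate block the counts were 6 and 10, against 3.23% and 3.98% of all tested probe sets. In 7 of the 14 without IgM and in 9 with IgM, all 3 deleted arrays lay above all 3 control arrays, which held for 8.03% and 10.2% of all tested probe sets. The 7 include both Dntt probe sets and the leading one of Igll1, and the 9 include both of Dntt. In Igll1 without IgM, the lowest deleted and the highest control array were equal to 2 decimals. Without deleted IgM-treated replicate 3 the counts called higher were 5 and 6. All counts and medians over the 14 hold the 3 probe sets that had entered only through deleted cells.

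**Figure D2:**
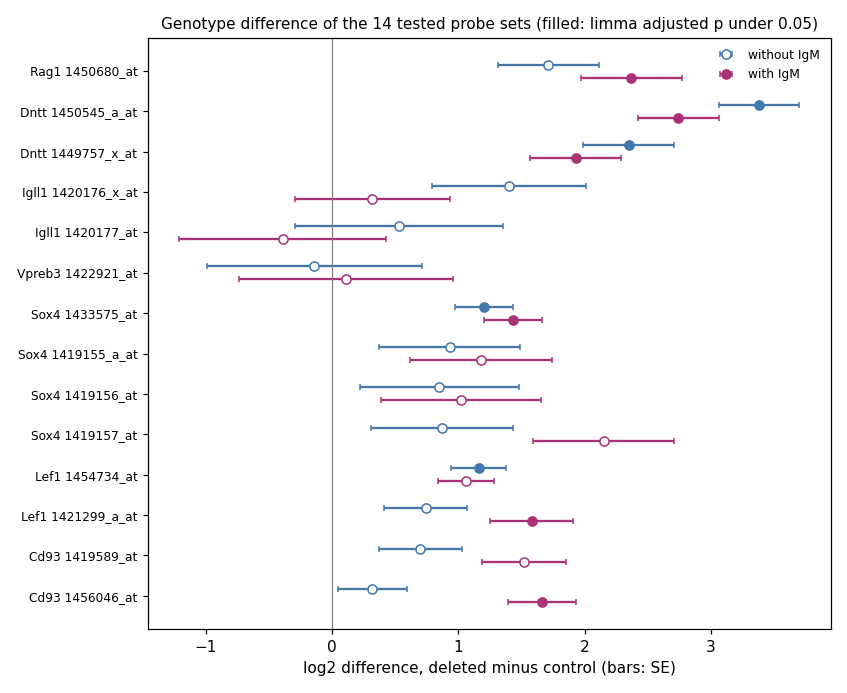
Difference of deleted minus control cells in log2 units, with its SE, for the 14 tested probe sets without and with IgM; filled points passed a limma adjusted p of 0.05. Both Dntt probe sets lie furthest to the right without IgM, at 3.38 and 2.35, and both Vpreb3 points lie beside 0.

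Rag1, the cutting subunit of the recombinase, was measured by 1 probe set. In replicates 1, 2 and 3 it stood at 6.05, 5.83 and 6.06 in unstimulated control cells and at 3.70, 4.00 and 4.28 in IgM-treated control cells. In deleted cells it was at 8.10, 8.06 and 6.91 without IgM and at 5.86, 7.19 and 6.04 with IgM. Deleted arrays lay above control arrays in both conditions. By group mean the order was unstimulated deleted, IgM-treated deleted, unstimulated control and IgM-treated control, at 7.69, 6.36, 5.98 and 3.99. The IgM-treated deleted arrays overlapped both of their neighbours in this order. After IgM, Rag1 was 5.17-fold higher in deleted cells (log2 difference 2.37, SE 0.40, n = 3 and 3, limma adjusted p = 0.0177). Without IgM the difference was 1.71 (SE 0.40, 3.27-fold, 95% interval 0.84 to 2.59), and it missed the threshold over all probe sets (adjusted p = 0.058). It passed with the replicate block (adjusted p = 0.0291) and with 1 probe set per gene (adjusted p = 0.046). It also passed without deleted IgM-treated replicate 2 (adjusted p = 0.0281), without deleted IgM-treated replicate 3 (0.0452) and without deleted unstimulated replicate 3 (0.0239), the lowest Rag1 array of its group. The difference with IgM missed the threshold without control IgM-treated replicate 1, 2 or 3 (adjusted p = 0.0866, 0.0678 and 0.0698).

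Rag2, the partner subunit, had 1 probe set and stood at 2.23 on all control arrays. It was at 2.56, 2.47 and 2.23 in unstimulated deleted cells and at 2.23, 2.43 and 2.23 in IgM-treated deleted cells. On 9 of the 12 arrays it was at the lowest value of the table, so its level was not measurable here in either genotype. A probe set that stays at the floor can miss a transcript, so absence of Rag2 RNA was not shown.

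Dntt, the untemplated polymerase, separated the genotypes on both of its tested probe sets. Its leading probe set was at 2.36, 2.41 and 2.27 in unstimulated and at 2.43, 2.38 and 2.30 in IgM-treated control cells, all close to the floor. In deleted cells it was at 5.87, 6.17 and 5.15 without IgM and at 5.14, 5.68 and 4.50 with IgM. No deleted array came within 2 log2 units of any control array. The log2 difference was 3.38 (SE 0.32, n = 3 and 3) without IgM, with a limma adjusted p of 0.000219, and 2.74 (SE 0.32) with IgM, with an adjusted p of 0.00326. As the control values lie near the floor and the probe set entered the test only through deleted cells, these differences describe values above the floor and give no fold. Both differences passed with any single array left out, at an adjusted p of 8.72e-05 to 0.00211 without IgM and 0.00187 to 0.0248 with it. The call with IgM was lost in the fit to the compared groups alone (0.0969). It was also lost without replicate 1 or 2 of every group (0.226 and 0.207), and the call without IgM was lost without replicate 2 (0.0501).

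The second Dntt probe set was at 2.23 on all 6 control arrays. It read 4.66, 4.28 and 4.82 in unstimulated deleted cells and 4.56, 4.79 and 3.14 in IgM-treated ones. It passed without IgM (difference 2.35, SE 0.36, adjusted p = 0.00587) and with IgM (1.93, SE 0.36, adjusted p = 0.0318). This probe set, too, had entered the test only through deleted cells. These differences therefore describe values above the floor, give no fold and are no separate support for the leading probe set. The lowest deleted value, 3.14, came from deleted IgM-treated replicate 3, and without that array the difference with IgM had an adjusted p of 0.00042. The call with IgM was lost without any one of the other arrays except deleted unstimulated replicate 3 (adjusted p 0.0522 to 0.136). The third Dntt probe set did not exceed 2.85 on any array and was not tested.

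The surrogate light chain genes were dim and uneven. The leading Igll1 probe set was at 3.53, 3.53 and 3.08 in unstimulated control cells and at 3.53 on all 3 IgM-treated control arrays. It was at 4.92, 5.88 and 3.53 in unstimulated deleted cells and at 4.63, 4.42 and 2.49 in IgM-treated deleted cells. Replicates 1 and 2 of the deleted cells were thus above every control array, and replicate 3 was level with 2 of the 3 unstimulated control arrays to 2 decimals, or below control arrays with IgM. The value 3.53 recurred on 6 of the 12 arrays. The differences of 1.40 (SE 0.61, adjusted p = 0.477) and 0.32 (SE 0.61, adjusted p = 0.837) did not pass. Without deleted IgM-treated replicate 3 the second was 1.0 (adjusted p = 0.588). The first passed with array weights (adjusted p = 0.023), without replicate 3 of every group (0.0446) and in the blocked fit without deleted IgM-treated replicate 3 (0.0461). The other Igll1 probe set stood at 3.04 on 6 arrays, was at 4.18 and 4.70 on the replicate 3 arrays of the control groups, and reached 6.10 on deleted unstimulated replicate 3, the array on which the leading probe set was lowest in its group, so the 2 probe sets disagreed about which samples were high. Its differences were 0.53 (SE 0.82) and -0.39 (SE 0.82), with adjusted p of 1 and 0.853.

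Vpreb1, the partner of Igll1 in the surrogate light chain, was between 2.23 and 2.24 on all control arrays. It was at 3.02, 5.07 and 2.66 in unstimulated deleted cells and at 2.85, 4.88 and 2.23 in IgM-treated ones. It was above 4 on the replicate 2 arrays of both deleted groups and nowhere else, so it did not enter the test. A further probe set that the annotation assigns to both Vpreb2 and Vpreb1 was left out by the rule, and it lay between 2.40 and 3.23 on all arrays. Apart from the replicate 2 arrays, the deleted values of the Vpreb1 probe set, 2.23 to 3.02, were near the floor, so a difference across the deleted arrays was not shown.

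Vpreb3, a relative of Vpreb1 that binds immunoglobulin chains during their assembly, gave overlapping values in the 2 genotypes. Its values were 9.15, 7.81 and 8.13 in unstimulated control cells and 9.08, 7.80 and 7.78 in unstimulated deleted cells. After IgM they were 6.43, 4.44 and 4.80 in control and 6.92, 5.82 and 3.26 in deleted cells. Values of the genotypes overlapped in both conditions, and within each replicate number the unstimulated values differed by at most 0.34. The genotype difference was -0.14 without IgM, with a 95% interval of -2.01 to 1.73, and 0.11 with IgM, with an interval of -1.76 to 1.99. These intervals span several-fold differences in both directions. With IgM, deleted replicate 3 was the lowest Vpreb3 array, and without it the difference was 1.15 (adjusted p = 0.66), or 0.96 with a replicate block as well (adjusted p = 0.0253), which passed.

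Sox4, the HMG-box factor that supports pro-B cell survival, had 1 called probe set, its leading one. It was at 10.33, 10.24 and 9.98 in unstimulated and at 9.84, 9.37 and 9.59 in IgM-treated control cells. In deleted cells it was at 11.64, 11.38 and 11.13 without IgM and at 11.33, 10.80 and 10.96 with IgM. All 6 deleted arrays lay above all 6 control arrays. The difference was 1.20 (SE 0.23, n = 3 and 3, 2.30-fold, limma adjusted p = 0.0216) without IgM and 1.43 (SE 0.23, 2.70-fold, adjusted p = 0.0161) with IgM. By replicate number the difference was 1.31, 1.14 and 1.15 without IgM and 1.49, 1.44 and 1.37 with it. The call without IgM was lost without deleted unstimulated replicate 1 or 2 (adjusted p = 0.105 and 0.0781) or without control unstimulated replicate 1, 2 or 3 (0.0575, 0.0713 and 0.103). The call with IgM was lost without control IgM-treated replicate 2 or 3 (0.0678 and 0.0809).

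Of the 7 other Sox4 probe sets, 3 were tested and 4 were at 3.03 or below on all arrays. The tested ones gave differences of 0.93, 0.85 and 0.87 without IgM and of 1.18, 1.02 and 2.15 with it, all above 0, and none passed (adjusted p = 0.11 at the lowest). In the blocked fit 2 of these passed with IgM, at differences of 1.18 (adjusted p = 0.0402) and 2.15 (adjusted p = 0.00916). Their spread was wider: in unstimulated deleted cells the first read 8.61, 8.21 and 6.47, and replicate 3 was within the control range of 6.45 to 7.30. That probe set also passed without IgM in the blocked fit without deleted IgM-treated replicate 3 (0.93, adjusted p = 0.0492).

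Lef1, an HMG-box factor that acts with β-catenin and is expressed in pro-B cells, had 2 tested probe sets. The leading one was at 8.35, 7.96 and 8.06 in unstimulated and at 7.82, 7.48 and 8.0 in IgM-treated control cells. It was at 9.55, 9.34 and 8.94 in unstimulated and at 8.79, 8.82 and 8.86 in IgM-treated deleted cells, so all 6 deleted arrays were above all control arrays. It was 2.23-fold higher in deleted cells without IgM (log2 difference 1.16, SE 0.22, adjusted p = 0.0238). With IgM the difference was 1.06 (SE 0.22, adjusted p = 0.0523), which passed with the replicate block (adjusted p = 0.0194), with 1 probe set per gene (0.0379) and, at 0.05 after rounding, without deleted unstimulated replicate 3. The call without IgM was lost without deleted unstimulated replicate 1 or 2 (0.112 and 0.0944) or control unstimulated replicate 2 or 3 (0.105 and 0.1).

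The second Lef1 probe set read 6.48, 6.20 and 6.21 in unstimulated and 5.26, 5.67 and 5.14 in IgM-treated control cells. In deleted cells it read 6.90, 7.78 and 6.43 without IgM and 6.61, 7.28 and 6.93 with IgM. Here the genotypes overlapped without IgM and separated with it. The difference with IgM passed (1.58, SE 0.33, adjusted p = 0.0486), and that without IgM did not (0.74, SE 0.33, adjusted p = 0.499). The call with IgM was lost without any single array except deleted unstimulated replicates 2 and 3 (adjusted p 0.0603 to 0.221), so it lies at the edge of the threshold.

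Cd93, the surface marker of immature and transitional B cells, had 2 tested probe sets. The leading one was at 9.15, 9.17 and 8.79 in unstimulated and at 8.40, 7.94 and 7.53 in IgM-treated control cells. It was at 10.01, 9.99 and 9.20 in unstimulated and at 9.90, 9.54 and 8.98 in IgM-treated deleted cells. The genotypes did not overlap in either condition, although the lowest unstimulated deleted array, at 9.20, was close to the highest control array, at 9.17. The differences were 0.70 (SE 0.33, adjusted p = 0.542) without IgM and 1.52 (SE 0.33, adjusted p = 0.056) with it. Both passed with the replicate block (adjusted p = 0.0474 and 0.00226), and that with IgM passed with 1 probe set per gene (0.0432), without deleted IgM-treated replicate 3 (0.0322) and, at 0.05 after rounding, without deleted unstimulated replicate 3.

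The second Cd93 probe set was at 8.46, 8.48 and 9.08 in unstimulated and at 7.62, 7.18 and 7.73 in IgM-treated control cells. It was at 9.04, 9.38 and 8.57 in unstimulated and at 9.22, 9.08 and 9.20 in IgM-treated deleted cells. Without IgM the genotypes overlapped, and with IgM they separated. The difference with IgM was 1.66 (SE 0.27, 3.16-fold, limma adjusted p = 0.0164), and that without IgM was 0.32 (SE 0.27, adjusted p = 0.99). The call with IgM was lost without control IgM-treated replicate 1, 2 or 3 (adjusted p = 0.0597, 0.0678 and 0.0598). The remaining 3 Cd93 probe sets did not exceed 3.42 on any array.

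After IgM, Vpreb3, Rag1 and Cd93 fell in control cells, and Vpreb3 and Rag1 fell in deleted cells. In control cells 4 of the 14 tested probe sets, from 3 genes, were called lower and none higher, against 9.91% of all tested probe sets called lower. In deleted cells 2 of the 14 were called lower and none higher, against 7.04%. Under the replicate block the counts were 7 and 2, where 17.4% and 15.3% of all tested probe sets were called lower. In 7 of the 14 in control cells and 2 in deleted cells, all IgM-treated arrays lay below all unstimulated arrays, which held for 21.9% and 14.8% of all tested probe sets. The median response of the 14 was -0.61 in control and -0.43 in deleted cells, and over the leading probe sets of all genes it was -0.05 and -0.08. Without deleted IgM-treated replicate 3, 0 of the 14 passed in deleted cells by limma and 2 had an unadjusted p under 0.05, and the median response was -0.18. A blocked fit without that array called 1 in deleted cells. The 2 IgM responses share no arrays with each other, but each shares its arrays with the genotype comparisons above.

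**Figure D3:**
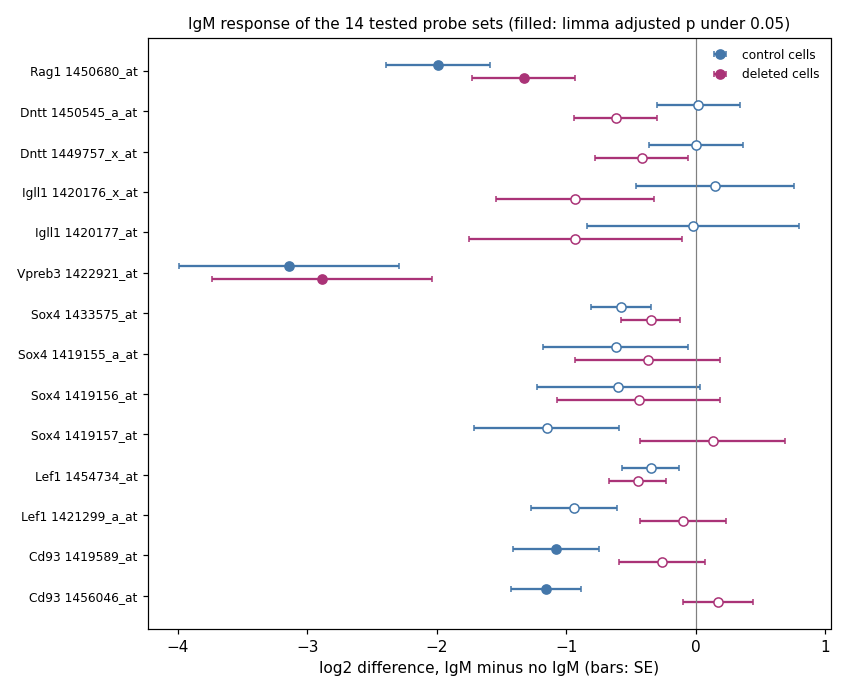
Response to IgM in log2 units, with its SE, for the 14 tested probe sets in control and deleted cells; filled points passed a limma adjusted p of 0.05. Vpreb3 and Rag1 are filled in both genotypes, at -3.14 and -2.89 and at -1.99 and -1.33, and the 2 Cd93 probe sets are filled in control cells.

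The Vpreb3 response was -3.14 (SE 0.85, n = 3 and 3, limma adjusted p = 0.0262) in control and -2.89 (SE 0.85, adjusted p = 0.0396) in deleted cells, about 8.82-fold and 7.41-fold lower. By replicate number it was -2.72, -3.38 and -3.33 in control and -2.16, -1.98 and -4.52 in deleted cells. The last value comes from deleted IgM-treated replicate 3, and without that array the response in deleted cells was -1.85 (adjusted p = 0.0839). The control call was lost without control IgM-treated replicate 2 or 3 (adjusted p = 0.0967 and 0.0914) or control unstimulated replicate 1 or 3 (0.0996 and 0.0632). The deleted call was lost without any of 9 single arrays, the exceptions being deleted IgM-treated replicate 1 and the replicate 1 arrays of both control groups (adjusted p 0.051 to 0.141 where it was lost).

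The Rag1 response was -1.99 (SE 0.40, adjusted p = 0.00608) in control cells, where the groups did not overlap, and -1.33 (SE 0.40, adjusted p = 0.0421) in deleted cells, where they did. The control call held without any single array (adjusted p 0.00315 to 0.0279). The deleted call was lost without any single array except deleted IgM-treated replicate 2 and deleted unstimulated replicate 3 (adjusted p 0.055 to 0.151), and was 0.0947 without deleted IgM-treated replicate 3. All pairs by replicate number were below 0, at -2.35, -1.83 and -1.78 in control and -2.25, -0.87 and -0.87 in deleted cells.

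The 2 Cd93 probe sets responded by -1.08 (SE 0.33, adjusted p = 0.0419) and -1.16 (SE 0.27, adjusted p = 0.0122) in control cells, where IgM-treated and unstimulated arrays did not overlap. In deleted cells the values were -0.26 (SE 0.33, adjusted p = 0.622) and 0.17 (SE 0.27, adjusted p = 0.703), with overlapping arrays. The control call of the leading probe set was lost without control IgM-treated replicate 2 or 3, any control unstimulated replicate, deleted IgM-treated replicate 2 or deleted unstimulated replicate 1 or 2 (adjusted p 0.0527 to 0.161). That of the other probe set was lost without control IgM-treated replicate 2 (0.0544) or control unstimulated replicate 3 (0.0524).

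Sox4 and Lef1 had small responses that did not pass. The leading Sox4 probe set gave -0.58 (adjusted p = 0.108) in control and -0.35 (adjusted p = 0.323) in deleted cells, and the leading Lef1 probe set gave -0.35 (0.337) and -0.45 (0.197). Under the replicate block the control responses of 2 Sox4 probe sets, -0.58 (adjusted p = 0.0212) and -1.15 (0.0268), and of the second Lef1 probe set, -0.94 (0.0198), passed. The last also passed without deleted unstimulated replicate 2 (0.0326) or 3 (0.0486). Dntt, near the floor in control cells with and without IgM, gave -0.62 (SE 0.32, adjusted p = 0.217) in deleted cells, and all 3 pairs by replicate number were below 0, at -0.72, -0.49 and -0.65.

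Whether the genotype difference itself depended on IgM was tested as an interaction, in which the unstimulated genotype difference is subtracted from the IgM-treated one. By limma 0 of the 14 passed, and 1 had an unadjusted p under 0.05, while 0.099% of all tested probe sets passed. That one was the second Cd93 probe set, at 1.33 (SE 0.38, limma adjusted p = 0.686, and 0.301 under the block). For Rag1 the interaction was 0.66, with a 95% interval of -0.58 to 1.90, and for the leading Dntt probe set it was -0.64, with an interval of -1.64 to 0.36. Thus calls made in one condition and not in the other, as for Cd93 and Rag1, were not shown to differ between the conditions.

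Across the 12 arrays, the leading probe sets of Sox4 and Lef1 followed each other most closely, with a Pearson correlation of 0.96. Dntt correlated at 0.91 with Sox4 and 0.92 with Lef1, Rag1 at 0.86 and 0.89, and Cd93 at 0.91 and 0.82. Vpreb3 correlated at 0.13 with Dntt and at 0.52 with Rag1. These correlations describe 12 arrays in 4 groups, so they hold the group differences as well as the spread between arrays. Without deleted IgM-treated replicate 3 that of Igll1 with Dntt was 0.84, against 0.67 with all arrays, and the Sox4 and Lef1 value stayed at 0.96.

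Among 9009 genes compared, those with the pattern most like Rag1 over the 12 arrays were Asah1 (r = 0.972) and Zfp652 (0.935). For Dntt they were Cd300lb (0.973) and Igsf6 (0.966), for Igll1 Tifab (0.959) and Mcemp1 (0.901), and for Vpreb3 Unc119 and Napsa (both 0.986). For Sox4 they were Stom (0.983) and Lef1 (0.959), for Lef1 Sox4 (0.959) and Il18rap (0.946), and for Cd93 Fes (0.940) and Idh1 (0.936). These ranks depend on deleted IgM-treated replicate 3. Without it Zfp652 fell to rank 12, Cd300lb to 6, Napsa to 9, Fes to 10 and Idh1 to 15, while Asah1, Tifab and Stom stayed first. Lef1 fell to rank 6 for Sox4, and Sox4 to 2 for Lef1, behind Il18rap. Unc119 fell to 2, and Igsf6 and Mcemp1 to 3. Igsf6 had group means of 2.66 and 2.77 in control cells without and with IgM, and 5.35 and 5.42 in deleted cells. Napsa had means of 12.18 and 11.91 in unstimulated control and deleted cells and 10.51 and 10.41 after IgM.

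Few other genes of the same processes passed the test between genotypes. In the lists below each gene is read from its leading probe set; over all 9293 such genes, 1.81% were called higher and 0.646% lower in deleted cells without IgM, and 1.39% and 0.108% with IgM. Of 17 measured recombination and end-joining repair genes, 1 passed without IgM and 0 with it. The 1 that passed was Poll, a repair polymerase related to Dntt, at 7.97 ± 0.33 in deleted and 6.07 ± 0.27 in control cells (SD, n = 3; difference 1.90, SE 0.29, adjusted p = 0.00553). With IgM its difference was 0.90 (adjusted p = 0.218). The replicate block added 1 lower gene without IgM, and without deleted IgM-treated replicate 3 the counts of this list were again 1 and 0. The list median was -0.0 without IgM and -0.08 with it, and Lig4, the ligase of end joining, had a difference of -0.27 (adjusted p = 0.579) with IgM.

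Of 22 measured regulators of early B cell development, Ikzf2, a relative of Ikaros, was higher without IgM (difference 1.27, SE 0.26, adjusted p = 0.0332) and Irf4, a factor of light chain rearrangement and plasma cells, was lower (-0.89, SE 0.19, adjusted p = 0.0337). With IgM 0 of the 22 passed, and the lowest were Runx1 at 1.30 (adjusted p = 0.053, 0.0273 with the replicate block) and Ikzf2 at 1.14 (0.0719, 0.0308 with the block). A second regulator was lower without IgM under the block, and without deleted IgM-treated replicate 3 the list had 1 higher and 3 lower. Of 16 measured pre-B cell receptor and pro-B cell genes, Spn, which encodes CD43, a surface protein of pro-B cells and many other leukocytes, was higher without IgM (10.06 ± 0.10 against 7.63 ± 0.25, difference 2.43, SE 0.24, adjusted p = 0.000329) and with it (1.76, SE 0.24, adjusted p = 0.00838). Kit, the stem cell factor receptor of pro-B cells and of other progenitors, was higher with IgM (2.48, SE 0.46, adjusted p = 0.0298, 0.0784 without deleted IgM-treated replicate 3). The list median was -0.12 without IgM and 0.20 with it. A replicate block gave 2 higher and 2 lower without IgM and 3 higher with it, and without deleted IgM-treated replicate 3 the counts were 3 higher and 2 lower, and 1 higher.

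Of 13 measured genes of mature B cells, Ccr6, a chemokine receptor, was lower in deleted cells without IgM (8.92 ± 0.48 against 10.93 ± 0.02, difference -2.01, SE 0.35, adjusted p = 0.0116). With IgM, S1pr1, the receptor for exit from lymphoid organs, and Cd55, a complement regulator, were higher, at 1.41 (adjusted p = 0.0483) and 1.20 (adjusted p = 0.0461), and neither passed without deleted IgM-treated replicate 3 (0.0836 and 0.0544). The median of this list was -0.15 and 0.30. The block added 1 lower gene with IgM, and without deleted IgM-treated replicate 3 the list had 2 lower without IgM and none called with it. Of 13 measured other genes of the Lef/Tcf and Sox families and their cofactors, 0 passed between genotypes by limma in either condition, and with the replicate block 1 was lower with IgM. The smallest p was that of Tle4, a corepressor, without IgM (0.66, adjusted p = 0.362, and 0.0335, a call, without deleted IgM-treated replicate 3) and that of Sox12 with IgM (-0.86, adjusted p = 0.202, or 0.0272 with the replicate block).

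In response to IgM, 8.32% of all leading probe sets were called higher and 11.4% lower in control cells, and 9.3% and 8.78% in deleted cells. Of the 22 regulators, 3 rose and 8 fell in control cells, and 3 rose and 4 fell in deleted cells. The limma adjusted p of each log2 change is given in parentheses, control cells first where both are given. Gfi1, a zinc-finger repressor, rose by 3.45 (adjusted p = 0.00032) and 3.81 (0.000239). Tcf3, which encodes the E2A factors that bind the E-box, fell by 2.17 (0.000319) in control cells. In deleted cells its means were 9.62 without IgM and 8.02 with it, so the fall was not particular to control cells. Id3, an inhibitor of E proteins, fell by 2.11 (0.0261) and 2.71 (0.00861), and Pax5, the B cell commitment factor, by 1.77 (0.0352) and 2.06 (0.0191, 0.0507 without deleted IgM-treated replicate 3). Of the 16 pre-B cell receptor and pro-B cell genes, 1 rose and 6 fell in control cells and 1 rose and 5 fell in deleted cells. Syk, the kinase below the receptor, fell by 2.95 (0.000239) and 2.06 (0.0017), and Ccnd3 by 1.76 (0.00379) and 1.99 (0.00224). Il7r rose by 1.85 (0.0107) in control cells. Its means in deleted cells were 8.79 without IgM and 9.62 with it, which was not called.

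Among the 17 recombination and repair genes, 2 rose and 0 fell in control cells, and 4 rose and 1 fell in deleted cells. Nbn, a part of the double-strand break sensor, rose by 2.28 (0.0171) and 2.63 (0.00907), and Xrcc5, which encodes a subunit of the end-binding Ku protein, by 1.02 (0.0268) and 1.54 (0.00399), whereas Poll fell by 1.77 (0.00235) in deleted cells. Of the 13 mature B cell genes, 6 fell in control cells, and 4 fell and 2 rose in deleted cells, with Cd55 falling by 3.58 (4.45e-05) and 3.26 (4.68e-05). Of the 13 Lef/Tcf and Sox genes, 3 rose in control and 2 in deleted cells, among them Tle3, a corepressor, by 1.01 (0.0145) and 1.02 (0.0144). Under the replicate block the rises and falls in control cells were 5 and 11 for the regulators, 2 and 10 for the pre-B cell receptor list, 4 and 3 for recombination and repair, 2 and 7 for mature B cells and 3 and 3 for the Lef/Tcf and Sox list. In deleted cells they were 6 and 6, 1 and 10, 4 and 1, 3 and 5, and 3 and 3. Without deleted IgM-treated replicate 3 they were, in the same order, 5 and 11, 1 and 9, 4 and 1, 2 and 6, and 5 and 3 in control cells, and 3 and 7, 1 and 7, 3 and 1, 2 and 5, and 3 and 0 in deleted cells.

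Markers of other cells moved with the genotype. Of 10 progenitor and granulocyte-precursor markers, 9 were measured, with a median genotype difference of 3.17 without IgM and 2.27 with it, and 1 and 2 were called higher (6 and 4 with the replicate block, 2 and 2 without deleted IgM-treated replicate 3). Cd34, a stem and progenitor cell surface protein, was 3.67 higher without IgM (SE 0.60, adjusted p = 0.00848) and 3.64 higher with it (SE 0.60, 0.0171). Mpo and Elane, granule enzymes of neutrophil precursors, had means of 8.96 and 6.42 in unstimulated control and 12.15 and 9.59 in unstimulated deleted cells. Their differences of 3.2 and 3.17 did not pass by limma (adjusted p = 0.0674 and 0.42), but did with the replicate block (0.00266 and 0.0453). Flt3, of the same list, differed by 0.26 without IgM and by -0.27 with it. The mean of the list was 6.17, 6.93 and 5.35 in unstimulated control and 9.46, 8.44 and 7.94 in unstimulated deleted replicates 1, 2 and 3. With IgM it was 5.62, 6.32 and 5.22 in control and 8.85, 7.92 and 6.81 in deleted cells, so the genotypes did not overlap in either condition. Summed on the linear scale, the list came to 553 to 2247 in unstimulated control, 518 to 1417 in IgM-treated control, 4569 to 18226 in unstimulated deleted and 2611 to 11092 in IgM-treated deleted cells. Hlf, the marker not measured, lay between 2.23 and 4.70. In bulk RNA, more cells of a type and more RNA per cell cannot be told apart. Sox4, Lef1, Cd93, Dntt and Kit are also expressed by progenitors other than B cells, and the part of such cells in the higher values of the 9 genes was not tested.

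**Figure D4:**
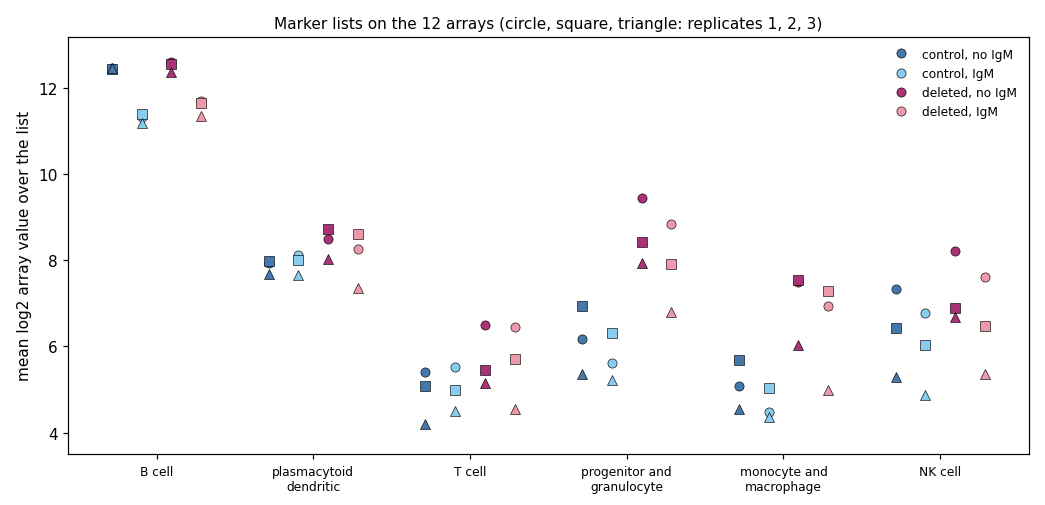
Mean log2 array value over the measured genes of 6 marker lists on the 12 arrays, with replicates 1, 2 and 3 as circles, squares and triangles. The progenitor list lies between 5.22 and 6.93 on control arrays and between 6.81 and 9.46 on deleted arrays, and the B cell list stays between 11.19 and 12.61.

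Of 10 monocyte and macrophage markers 6 were measured, with median differences of 2.79 and 2.19. Csf1r, the receptor of macrophage growth factor, was higher without IgM (3.69, SE 0.72, adjusted p = 0.0245) and with it (3.99, SE 0.72, 0.0256, or 0.0677 without deleted IgM-treated replicate 3), and Adgre1, an adhesion receptor of macrophages, was lower without IgM (-1.45, SE 0.32, 0.0437). The list summed on the linear scale to 222 to 608 and 847 to 3296 in unstimulated control and deleted cells, and to 187 to 466 and 474 to 2561 after IgM. Lyz2, Cd14 and Fcgr3 had unstimulated means of 7.63, 2.28 and 4.93 in control and 10.50, 5.15 and 7.64 in deleted cells, differences of 2.87, 2.87 and 2.71 (adjusted p = 0.303, 0.204 and 0.241, and 0.00163, 0.0474 and 0.0227 with the replicate block). Itgam and Fcgr1 stayed between 2.23 and 2.47 on all arrays. In the blocked fit 4 of the 6 were higher without IgM and 2 with it, and without deleted IgM-treated replicate 3 the counts were 3 and 2. Their part in the higher member values was not tested.

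Of 10 endothelial and platelet markers 2 were measured. Pecam1, which leukocytes also carry, was 2.28 (SE 0.46, adjusted p = 0.0299) and 3.94 (SE 0.46, 0.00326) higher in deleted cells, and Pf4, a platelet chemokine, had unstimulated means of 4.78 in control and 7.42 in deleted cells (2.63, SE 0.81, adjusted p = 0.178, 0.0374 with the block). Among those not measured, Vwf, Gp9 and Tek reached 5.15, 3.91 and 3.72, with IgM-treated Vwf means of 2.40 in control and 3.69 in deleted cells, while Cdh5 and Tie1 did not exceed 2.31 and 2.29. Of the NK cell, T cell and plasmacytoid dendritic cell lists, 0 of 6, 0 of 6 and 0 of 9 measured genes passed between genotypes by limma, with median differences of 0.94, 0.84 and 0.49 without IgM. Under the block 1, 1 and 3 of them were higher without IgM and 2 of each with it, and without deleted IgM-treated replicate 3 1 plasmacytoid dendritic cell gene passed without IgM. Among T cell markers, 9 of the 15 were not measured, and Cd4, Thy1 and Ptcra did not exceed 2.27. Cd3d, Cd3g and Lat had unstimulated means of 6.34, 4.96 and 3.88 in control and 7.34, 5.88 and 5.55 in deleted cells (adjusted p = 1, 0.922 and 0.25, and 0.0353 for Lat with the block). These lists summed on the linear scale to 323 to 1788 and 869 to 2799 for NK cells, 124 to 342 and 251 to 721 for T cells, and 9657 to 12824 and 9799 to 11502 for plasmacytoid dendritic cells, in unstimulated control and deleted cells in turn. The last sum mostly follows Ly6d and Tcf4, with unstimulated control means of 12.86 and 11.22. In that list the unstimulated genotype difference was 1.5 for Lair1, 1.52 for Bst2, 1.27 for Siglech, 1.01 for Ccr9 and 0.49 for Cox6a2. It was -0.55 for Ly6d, -0.23 for Klk1, -0.04 for Pacsin1 and -0.0 for Tcf4. Lair1, Siglech and Ccr9 passed with the block (0.00745, 0.0491 and 0.0228), and Bst2 without deleted IgM-treated replicate 3 (0.00797). The part of these cell types in the member values was not tested.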

How the data were processed

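RNA of splenic B220+ B cells was hybridised to 12 one-colour Affymetrix arrays. The deposited log2 values were made by the authors with GCRMA, per the submitters' processing notes, which corrects background, normalizes arrays and summarises probes. Version and settings are not given in the sources used here. After GCRMA, dim probe sets could rest at 2.23, the lowest value, or at a higher value of their own, so differences from dim levels are compressed. The Igll1 probe sets repeated 3.53 and 3.04 on 6 arrays each. Arrays have no read depth, and their number limits precision.

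Probe sets were named from the platform annotation, with symbols updated through gene identifiers for 34741. Of 45101 probe sets, 64 were controls, 34945 had 1 gene, 932 several and 9160 none. Those above 4 on at least 3 arrays, 19187, were tested in limma 3.58.1 (R 4.3.3), with 1 mean for each of the 4 groups, 5 contrasts, two-sided tests and Benjamini-Hochberg adjustment over all of them, at a threshold of 0.05.

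Replicate numbers recur in every group. After subtracting group means, arrays with the same number correlated at 0.55 to 0.78 and 0.17 to 0.80 between genotypes without and with IgM, and at 0.69 to 0.85 and 0.32 to 0.72 between stimulations in control and deleted cells. Every value was above 0.1, the limit set for taking replicate numbers as pairs. The main fit has no block, so its adjusted p-values and counts leave this pairing out. The fit with the replicate block takes it in, and is given where it changes a call or moves a count by more than 1.5 times.

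The members and gene lists were chosen with earlier results of these data known. Genes of the lists were named by a rule: per comparison, the 4 largest changes past the threshold at most, or if none passed the 2 genes of smallest p, of which the text gives examples. Of the cell markers, Blk, Mpo, Elane, Flt3, Lyz2, Cd14, Fcgr3, Pf4, Vwf, Gp9, Tek, Cd3d, Cd3g and Lat were named after their values were seen. So were the plasmacytoid dendritic cell genes. For each member, the 2 named genes with the highest Pearson correlation over the arrays were given, without predicted genes. Alternatives covered the block, the filter, 1 probe set per gene, median centring, repeated quantile normalization, trend and robust variance, array weights, fits to the compared groups alone and left-out arrays. The fit with the block and without deleted IgM-treated replicate 3 was added after the data were seen. The fit was tested on simulated data.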

Additional observations from a re-analysis of the deposited data

How the results depend on the processing

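Of 391 alternative values for the 16 called member differences, 261 stayed past the threshold, 130 missed it and 0 changed sign. Of 1285 alternative values for the 54 uncalled differences, 48 passed and 64, from 20 differences, changed sign while uncalled. The counts of 14 called without IgM, with IgM, in the control response and in the deleted response were 4, 6, 4 and 2. With the replicate block they were 6, 10, 7 and 2, and the block with deleted IgM-treated replicate 3 left out, chosen after the data were seen, gave 8, 11, 7 and 1. For members, the replicate block changed no call other than those given in the report. Without a filter, with all probe sets but controls in both the fit and the adjustment, the counts were 4, 3, 2 and 0. With the stricter filter at 6 they were 2, 5, 4 and 2, and neither Dntt probe set was tested there. Array weights gave 6, 10, 5 and 3. Fits to the compared groups alone, with 6 arrays, gave 3, 0, 6 and 0. Leaving out single arrays or whole replicate numbers gave 0 to 5, 0 to 8, 0 to 5 and 0 to 1, and all were 0 without replicate 2. The remaining alternatives were within 1.5 times of the main counts, and the interaction count was 0 under all of them. Among these, the fit with 1 probe set per gene held only the leading probe set of each gene. For the changes whose cause is not named here, the cause was not tested. Signal near the floor or at a repeated dim value limits Rag2, Vpreb1, Igll1 and the control values of Dntt.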
